A study of Mus musculus with 4 samples.

Results

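The genes described here are 34 members of the respiratory chain and its controls, out of 53647 genes in the count tables. They were chosen by name: 15 are encoded by the mitochondrial genome (13 mRNAs and 2 rRNAs) and 19 by the nucleus. Of the latter, 17 code for parts of the chain itself and 2, Tfam and Ppargc1a, regulate it. The choice was made with measured values of these libraries in view, so the members' antibody contrast is given as a description. In the tests, 33 members passed the filter on low counts in each of the 10 cell classes, and the remaining one, Ppargc1a, passed it in 4.

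The libraries hold single cells of the spinal cord of aged mice of the C57BL/6J strain, which is inbred. Tissue around the lesion was taken 28 days after spinal cord injury. The mice had received IgG (2 libraries) or anti-CD8 (2 libraries), which binds a surface protein that marks cytotoxic T cells, and no uninjured library is used here. The submitters call the 2 libraries of a group biological replicates. How many mice went into a library, their sex and the antibody dose are not in the labels used here. Tissue was dissociated and cleared of myelin with magnetic beads before 3′ single-cell libraries were made, which sets which cell types are seen.

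The respiratory chain is a row of protein complexes in the inner mitochondrial membrane. Complex I (NADH dehydrogenase) and complex II (succinate dehydrogenase) take up electrons, complex III (cytochrome bc1) passes them to cytochrome c, and complex IV (cytochrome c oxidase) hands them to oxygen, while the proton gradient that builds up drives ATP synthase. Most subunits are made from nuclear genes. A few core subunits of complexes I, III and IV and of ATP synthase, with none of complex II, come from the mitochondrial DNA, whose strands are read as long transcripts that are cut into single RNAs. Cells that leak their cytoplasm tend to keep mitochondrial RNA, so its share is also widely read as a mark of cell quality.

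Several mitochondrial genes have near-perfect copies in nuclear DNA. Their sequences are shown because the members differ in this respect and, as described further on, also in the contrast. In the GENCODE M21 annotation (GRCm38) 7 pseudogenes lie side by side on the minus strand at chr1:24611535-24616197. The copy of mt-Atp6 (chrM:7927-8607) is Gm10925 (chr1:24613974-24614651), 678 bases long and identical throughout. Those of mt-Co2, mt-Co3 and mt-Nd4l were identical over 681, 783 and 294 bases, and that of mt-Nd4 over 876 of the gene's 1378 bases. The copy of mt-Nd3 (chrM:9459-9806) differed at 1 of 345 bases, T3C, which names the mitochondrial base, its position from 1 at the start of the gene, and the base of the copy. That of mt-Co1 differed at 6 of 492 bases. The first 60 compared bases of 3 pairs are printed 5′ to 3′ with differing bases in capitals. The start of mt-Cytb (chrM:14145-15288), for which the search found no copy, follows.
mt-Atp6: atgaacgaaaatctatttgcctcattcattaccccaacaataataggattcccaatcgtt
Gm10925: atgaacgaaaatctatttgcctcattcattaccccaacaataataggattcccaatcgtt
mt-Nd3: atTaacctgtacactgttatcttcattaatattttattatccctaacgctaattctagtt
Gm28438: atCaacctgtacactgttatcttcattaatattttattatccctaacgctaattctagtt
mt-Co1: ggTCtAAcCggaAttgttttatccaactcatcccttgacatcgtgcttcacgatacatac
Gm29216: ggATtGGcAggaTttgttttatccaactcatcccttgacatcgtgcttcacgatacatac
mt-Cytb: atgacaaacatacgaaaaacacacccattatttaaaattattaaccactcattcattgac

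Every stretch of 90 bases of each mitochondrial gene was searched for in the other annotated transcripts. A match was found for 99.9% of the stretches of mt-Co3, 99.5% of those of mt-Co2 and of mt-Atp6, 98.6% for mt-Nd4l and 97.7% for mt-Nd3, and these 5 are called the genes with a copy. It was 61.1% for mt-Nd4 and 33.4% for mt-Co1, which are set apart as partly copied. In mt-Nd2 it was 4.2%, in mt-Nd5 0.3%, and in mt-Nd1, mt-Nd6, mt-Atp8 and mt-Cytb 0%, and these 6 are called the genes without an annotated copy. The search sees annotated transcripts only. Between the copies of mt-Co2 and mt-Atp6 lie 233 bases without a listed gene, next to 230 bases between the same genes in the mitochondrial DNA, where most of mt-Atp8 is found. The sources used here do not say how reads that match both places were assigned.

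The libraries held 152457679 to 170539226 UMIs (unique molecular identifiers, 1 for each captured transcript). After filters 27695 of 29956 barcodes were kept, and 87 barcode sequences occurred in more than 1 library. Clusters were made without the members and named from marker lists. Cd8a, a chain of the antibody's target, stood in T cells at 336 and 241 CPM (the UMIs of a gene scaled to equal totals of the class in each library) in the IgG libraries and at 176 and 102 in the anti-CD8 libraries. A phagocyte cluster led by Saa3 and one of low depth (median 3022 UMIs a cell) are called by those features. Both met the marker rule for microglia, with 5 and 8 of 10 microglial markers, and were then set apart. The Spp1-high class is phagocytes with high Spp1, Gpnmb and Lpl, and haemoglobin genes are also among the leading genes of one of its clusters, in which the erythrocyte list scored highest. Hbb-bs had a UMI in 1.08% of the cells of that cluster and in 0.472% to 1.08% over the 12 largest clusters, and in the cluster it stood at 52.1 CPM in IgG 1 and at most 0.352 in the other libraries. A cluster of dividing cells, led by Ube2c and Top2a, was counted with microglia by its microglial markers although the neutrophil list had the higher score.

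Cell types differed more in mitochondrial mRNA than in nuclear subunit mRNA. The 13 mitochondrial mRNAs took 2.71%, 2.37%, 2.22% and 2.22% of all UMIs of ependymal cells (ciliated cells that line the central canal) in IgG 1, IgG 2, anti-CD8 1 and anti-CD8 2. The other 9 tested classes lay below these values in every library. Pericytes and smooth muscle had 1.18% to 1.65%, endothelial cells 1.08% to 1.29%, neurons 0.952% to 1.23% and low-depth phagocytes 0.757% to 1.37%, and these ranges overlapped. Microglia had 0.821% to 0.953%, monocytes and macrophages 0.777% to 0.902% and Spp1-high phagocytes 0.746% to 0.893%, again with overlap. T cells, at 0.734% to 0.798%, lay below microglia in every library and overlapped the other 2 of these classes. The 17 nuclear subunits took between 0.308% and 0.436% in each library of 9 of the 10 classes and 0.510% to 0.540% in low-depth phagocytes. Mitochondrial over nuclear mRNA was 5.93 to 7.80 in ependymal cells, 2.95 to 3.45 in endothelial cells, 2.57 to 2.97 in microglia and 2.03 to 2.24 in T cells. A neutrophil cluster of 16 cells, not tested, had a mitochondrial mRNA share of 0.0510% to 0.180%.

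**Figure D1:**
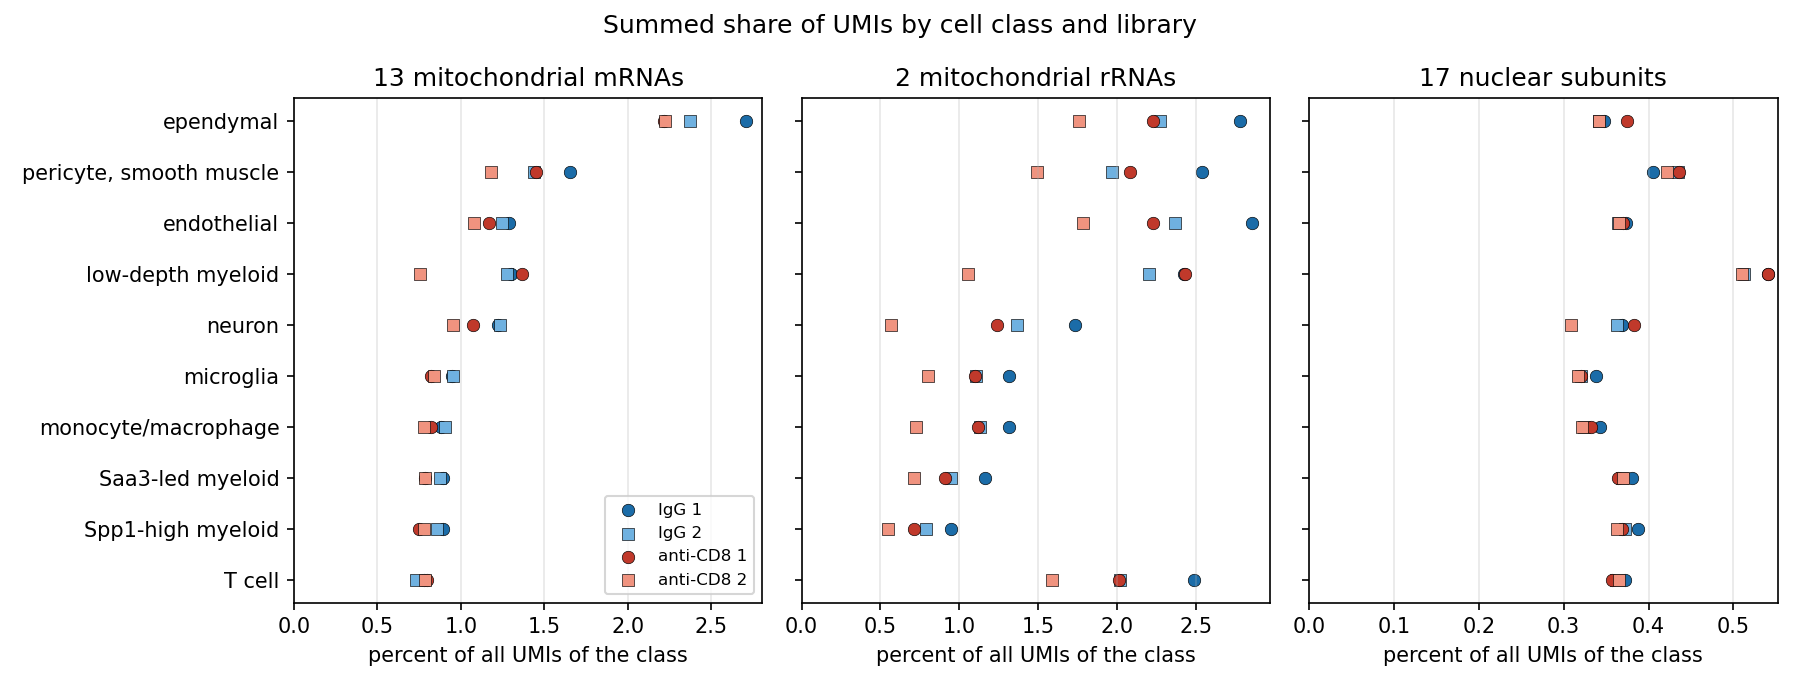
Share of all UMIs of a class (x axis, percent) taken by the 13 mitochondrial mRNAs, the 2 mitochondrial rRNAs and the 17 nuclear subunits, by cell class (y axis); each point is 1 library. Ependymal cells are highest for mitochondrial mRNA, anti-CD8 2 is lowest for rRNA in each row, and the nuclear subunits lie within a narrow range outside the low-depth phagocytes.

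The pattern over cell types was not the same for each mitochondrial gene. mt-Cytb, the cytochrome b of complex III, had a mean of 8768 CPM over the 4 ependymal libraries, 2492 in microglia and 2105 in T cells. mt-Nd4, a complex I subunit, followed the same order at 4883, 1362 and 1016. mt-Nd1, also of complex I, did not set ependymal cells apart: its range of 1546 to 1884 there overlapped the 1568 to 1685 of microglia. mt-Rnr2, the large rRNA of the mitochondrial ribosome, had means of 18538 in endothelial cells, 17428 in ependymal cells, 14587 in T cells and 6168 in Spp1-high phagocytes. In each library T cells had the highest ratio of mitochondrial rRNA to mRNA among the tested classes, 2.03 to 3.19.

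Subunit variants that only some tissues use marked particular classes. Ndufa4l2 and Cox4i2, relatives of Ndufa4 and Cox4i1, were at 434 and 206 CPM in pericytes and smooth muscle, and their next highest tested class, endothelial cells, had 10.5 and 6.60. Both were among the leading genes of a pericyte cluster, so this is a description. Cox6a2, the form of a complex IV subunit best known from heart and skeletal muscle, was found in phagocytes. It was at 101 in the Spp1-high class, 89.0 in the Saa3-led class, 67.5 in microglia and 16.99 in monocytes and macrophages, against 1.24 in endothelial and 2.28 in ependymal cells. It stood at 166 in low-depth phagocytes, where it was among the genes that led the cluster. Cox6b2, known from testis, was at 35.98 in ependymal cells and at most 6.29 in the other tested classes. Cox7a1 reached 11.1 at most, in ependymal cells, and Cox8b 0.102, in T cells.

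Ppargc1a, a co-activator of mitochondrial gene programmes, was at 60.3 CPM in ependymal cells, 30.2 in neurons and 9.19 in pericytes and smooth muscle, and at 0.0637 in microglia. Tfam, which packs mitochondrial DNA and starts its transcription, was at 47.5 in ependymal cells, 33.7 in T cells and 16.8 in microglia. Cycs, cytochrome c, was at 144 in T cells, 79.0 in microglia and 56.4 in Saa3-led phagocytes. Ndufa4, a subunit now counted with complex IV, had 382 to 517 in neurons and 99.3 to 114 in monocytes and macrophages, with no overlap. Cox4i1, the common form of its subunit, had a mean of 919 in Saa3-led phagocytes and 513 in T cells.

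**Figure D2:**
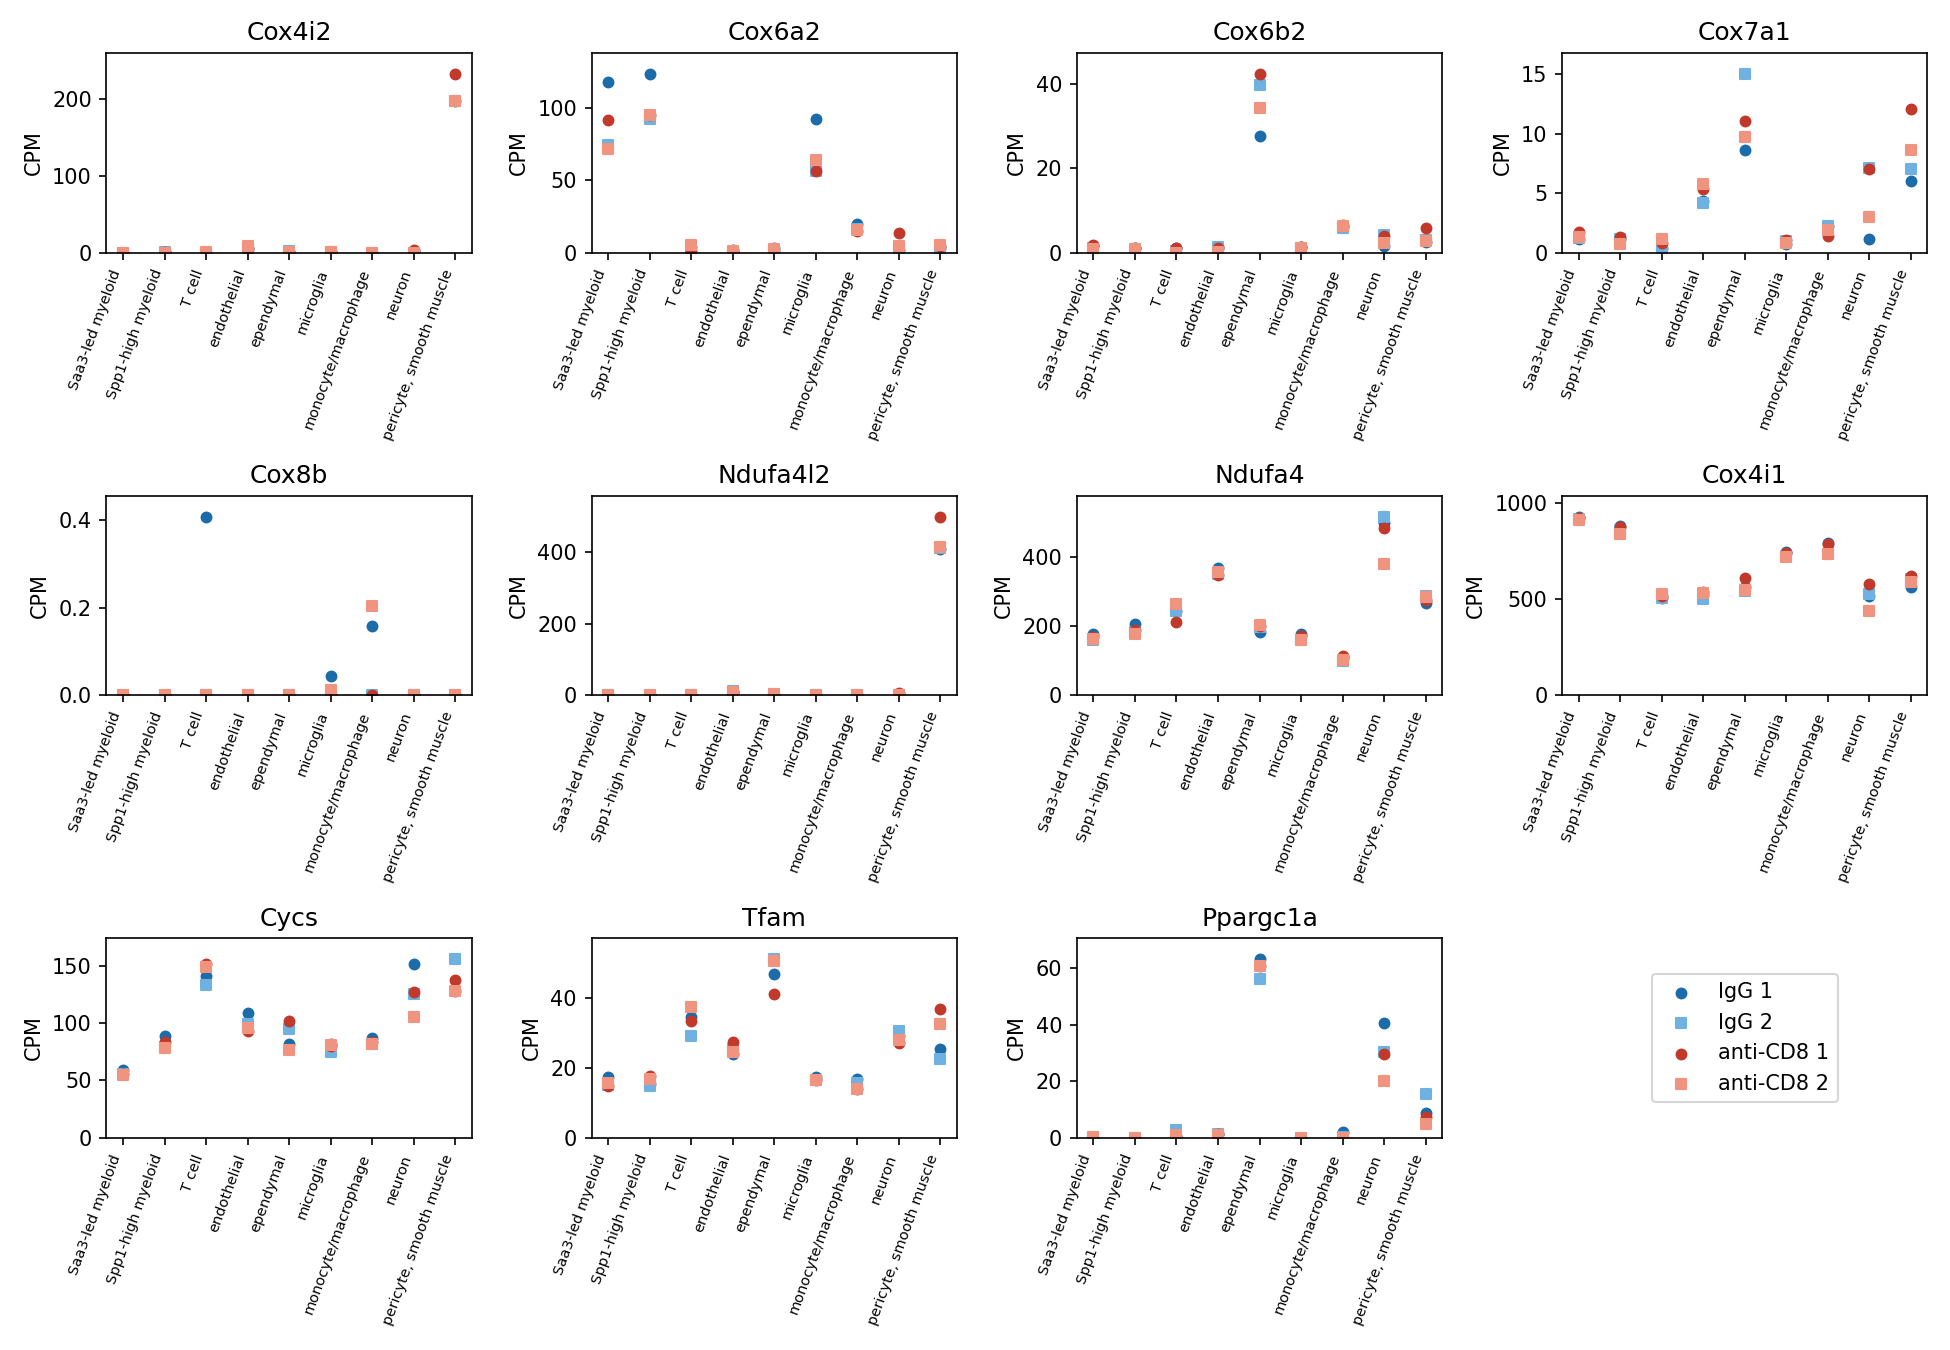
CPM (y axis, each from 0) of the 6 tissue variants, of Ndufa4 and Cox4i1, and of Cycs, Tfam and Ppargc1a in 9 tested classes (x axis; the low-depth phagocytes are left out); each point is 1 library. Ndufa4l2 and Cox4i2 stand out in pericytes and smooth muscle, Cox6a2 in phagocytes and Ppargc1a in ependymal cells and neurons.

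The antibody contrast was examined on UMIs summed per class and library. In microglia the mitochondrial mRNA share was 0.944% and 0.953% in the IgG libraries and 0.821% and 0.837% in the anti-CD8 libraries, a log2 difference of -0.19. The anti-CD8 libraries were both below the IgG libraries in 7 of 10 classes, with log2 differences from -0.15 in monocytes and macrophages to -0.28 in neurons. Pericytes and smooth muscle overlapped, as did low-depth phagocytes. In the latter anti-CD8 2 had 0.757% and anti-CD8 1 1.37%, and the log2 difference of -0.28 became 0.088 without anti-CD8 2 and -0.76 without anti-CD8 1. In T cells both anti-CD8 libraries were higher. The nuclear subunits of microglia took 0.339%, 0.321%, 0.320% and 0.317% in IgG 1, IgG 2, anti-CD8 1 and anti-CD8 2, a log2 difference of -0.050. With 2 libraries a group an exact test cannot go below 0.33, and none was made of these sums. The makeup of microglia differed between the libraries. A cluster led by Crybb1, with shares of 0.833% for mitochondrial mRNA and 0.280% for nuclear subunits, held 551 and 760 IgG cells. It held 1087 and 1183 anti-CD8 cells. Microglia were 2857 and 2594 cells in the IgG libraries and 3195 and 3636 in the anti-CD8 libraries. An interferon-led cluster held 451, 77, 58 and 108 in IgG 1, IgG 2, anti-CD8 1 and anti-CD8 2. The part of this makeup was not tested.

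Single genes differed in how far they were apart. mt-Atp6, the proton channel subunit of ATP synthase, was at 260.0 and 296 normalised CPM in the IgG microglia and at 157 and 199 in the anti-CD8 microglia. The groups did not overlap, and the fitted log2 fold change was -0.64 ± 0.12 (SE). mt-Nd3, a core subunit of complex I, and mt-Co2 and mt-Co3, core subunits of complex IV, had -0.51, -0.51 and -0.48. mt-Nd1 had -0.14, and mt-Cytb -0.21, at 2732 and 2623 against 2315 and 2312. mt-Atp6 was lower in both anti-CD8 libraries than in both IgG libraries in all 10 classes, with log2 fold changes from -0.76 in neurons to -0.48 in T cells. That was also so in all 10 for mt-Co2 (-0.66 to -0.29), mt-Co3 (-0.71 to -0.37), mt-Nd3 (-0.55 to -0.12) and mt-Atp8 (-0.60 to -0.093). The last of these has no annotated copy and overlaps mt-Atp6 by 43 bases. The 10 classes come from the same 4 libraries, so they are not separate observations. In single classes this order of the groups held for 13.4% to 21.5% of all genes. The share of all genes for which it held in every class was not counted. mt-Nd4l, which has a copy, was at low counts and ran from -0.49 in endothelial cells to 0.24 in T cells.

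The genes with a copy and those without were then summed separately. Per UMI of the 6 genes without an annotated copy, the 5 with a copy had 0.141 and 0.146 UMIs in the IgG microglia and 0.103 and 0.124 in the anti-CD8 microglia. The anti-CD8 libraries were both below the IgG libraries in all 10 tested classes. In 8 of the 10 the libraries stood in the order IgG 2, IgG 1, anti-CD8 2, anti-CD8 1, and in the other 2 the IgG libraries changed places. T cells had 0.167, 0.174, 0.113 and 0.134 in IgG 1, IgG 2, anti-CD8 1 and anti-CD8 2, so they followed the same order. The share of the 6 genes without a copy had log2 differences of -0.16 in microglia, -0.13 in endothelial cells and 0.15 in T cells, against -0.49, -0.50 and -0.31 for the 5 with a copy. The listed nuclear copies were lower too, at 11.1 and 10.9 CPM in the IgG microglia against 7.80 and 8.15. Since each library holds 1 group, a difference of whole libraries and a difference between the antibodies cannot be told apart. The part of the assignment of reads between gene and copy was not tested.

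**Figure D3:**
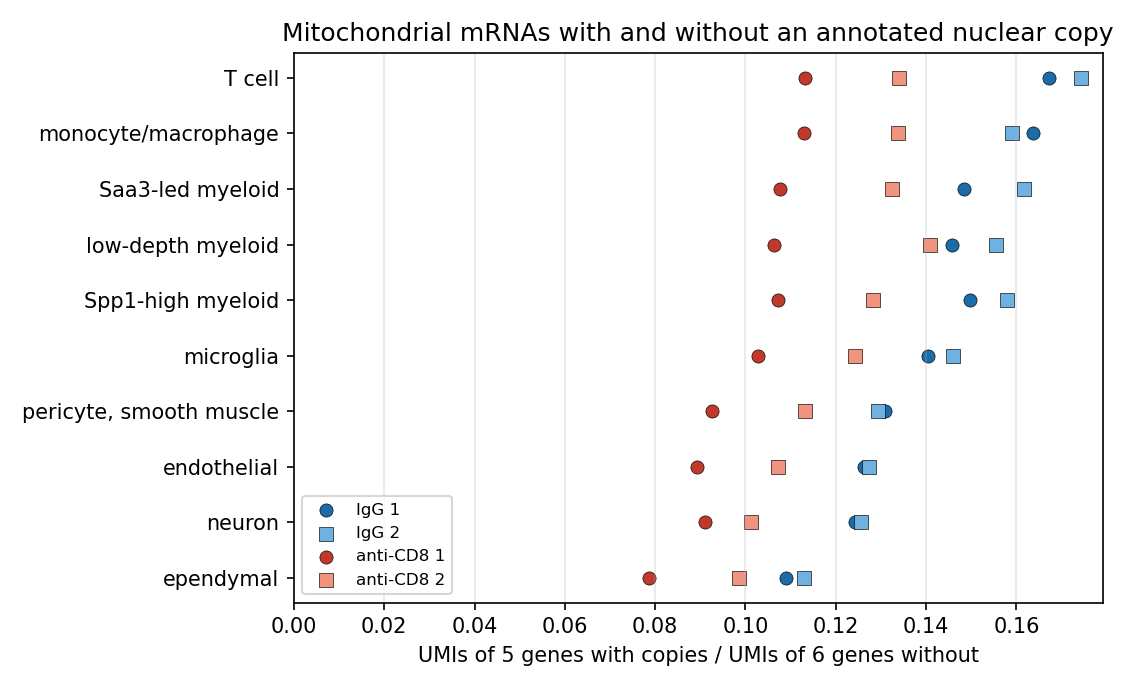
UMIs of the 5 mitochondrial mRNAs with a nuclear copy per UMI of the 6 without an annotated copy (x axis) by cell class (y axis); each point is 1 library. In every row anti-CD8 1 is lowest, anti-CD8 2 next, and the IgG libraries are highest.

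The rRNAs had a different order of libraries. Their summed share in microglia was 1.31% and 1.11% in the IgG libraries and 1.10% and 0.798% in the anti-CD8 libraries, so IgG 2 and anti-CD8 1 lay close together. In 8 of 10 classes the order was IgG 1, IgG 2, anti-CD8 1, anti-CD8 2. Anti-CD8 2 was lowest in all 10 and IgG 1 highest in 9. Neurons had 1.73% and 1.37% against 1.24% and 0.568%. Fitted log2 fold changes of mt-Rnr1, the small rRNA, ran from -0.85 in neurons to -0.31 in ependymal cells, and those of mt-Rnr2 from -0.81 in neurons to -0.36 in pericytes and smooth muscle. Here too the library and the antibody cannot be told apart.

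A member was called when edgeR's quasi-likelihood test gave a Benjamini-Hochberg adjusted p under 0.05 over all genes of the class. In Saa3-led phagocytes 2 of 33 members were called, where 0.0757% of all 13206 genes were. mt-Nd3 fell there from 312 and 285 normalised CPM in the IgG libraries to 204 and 212 in the anti-CD8 libraries (log2 fold change -0.52 ± 0.067, adjusted p = 0.0188). mt-Atp6 fell from 260.4 and 293 to 161 and 202 (-0.61 ± 0.094, adjusted p = 0.0420). The groups did not overlap for either gene. Cells of this class under 5000 UMIs numbered 116 of 625 in IgG 1 and 8 of 459 in IgG 2. They numbered 20 of 704 in anti-CD8 1 and 21 of 553 in anti-CD8 2, and the part of this was not tested. Neither gene was called by edgeR among cells of matched depth, with adjusted p of 0.0732 and 0.156. That fit used fewer cells, and in it 1 of all 11637 genes was called. With all cells of the class 14 members had an unadjusted p under 0.05, against 5.95% of all genes. DESeq2 called 2, against 0.0739% of the genes to which it gave an adjusted p. With 1 library left out the called members of this class were 3 without IgG 1 (all genes 19), 7 without IgG 2 (all genes 82), 5 without anti-CD8 1 (all genes 91) and 9 without anti-CD8 2 (all genes 202), so calls became more frequent over all genes too, from 10 with every library.

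In the other 9 classes edgeR called no member. Of all genes it called 0.0166% in microglia, 0.0323% in Spp1-high phagocytes, 0.00701% in ependymal cells, 0.00804% in pericytes and smooth muscle, 1.27% in neurons and 0.797% in T cells, and 0% in monocytes and macrophages, low-depth phagocytes and endothelial cells. Members at an unadjusted p under 0.05, with the share of all genes at that p in brackets, numbered 17 in microglia (9.22%), 18 in Spp1-high phagocytes (7.29%), 11 in monocytes and macrophages (4.98%), 10 in endothelial cells (4.76%) and 8 in neurons (10.7%). They numbered 7 in pericytes and smooth muscle (4.36%), 4 in ependymal cells (2.31%), 3 in low-depth phagocytes (2.76%) and 3 in T cells (12%). DESeq2, with its own share over all genes in brackets, called 7 in microglia (0.546%), 7 in Spp1-high phagocytes (0.362%), 1 in monocytes and macrophages (0.00851%), 1 in endothelial cells (0.0155%) and 2 in neurons (1.78%). It called 1 in pericytes and smooth muscle (0.021%), 1 in ependymal cells (0.0944%), 0 in low-depth phagocytes (0%) and 0 in T cells (1.52%).

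Leaving out 1 library gave edgeR calls among the members of these classes, and the number of all genes called in the same fit is in brackets. In Spp1-high phagocytes, where 5 genes were called with every library, the members called were 8 without IgG 1 (all genes 143), 8 without IgG 2 (all genes 136), 7 without anti-CD8 1 (all genes 68) and 5 without anti-CD8 2 (all genes 49). Microglia had 2 without IgG 2 (all genes 214) and low-depth phagocytes 11 without anti-CD8 1 (all genes 63). Endothelial cells had 3 without IgG 1 (all genes 41) and 7 without IgG 2 (all genes 170), and neurons 4 without anti-CD8 1 (all genes 270). Pericytes and smooth muscle had 3 without IgG 2 (all genes 59) and 2 without anti-CD8 2 (all genes 28), and T cells 2 without IgG 2 (all genes 502) and 1 without anti-CD8 1 (all genes 144). Monocytes and macrophages had 1 without IgG 1 (all genes 16), 1 without IgG 2 (all genes 29), 1 without anti-CD8 1 (all genes 9) and 3 without anti-CD8 2 (all genes 50). Calls over all genes thus moved with the library left out as well.

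Both anti-CD8 libraries were below both IgG libraries for 15 of 15 mitochondrial members in microglia, where this held for 21.4% of all genes. The number was also 15 in Spp1-high phagocytes (all genes 19.5%), Saa3-led phagocytes (17.3%) and endothelial cells (16.5%), and 14 in monocytes and macrophages (16.7%) and neurons (19%). It was 8 in ependymal cells (14%), 7 in pericytes and smooth muscle (16.1%), 6 in low-depth phagocytes (13.4%) and 9 in T cells (21.5%). Of the nuclear members it was 10 of 18 in microglia, 7 of 18 in Spp1-high phagocytes, 7 of 18 in T cells, 4 of 19 in endothelial cells and 0 of 19 in ependymal cells. Since the contrast was in view when the genes were chosen, nothing is read from these counts.

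**Figure D4:**
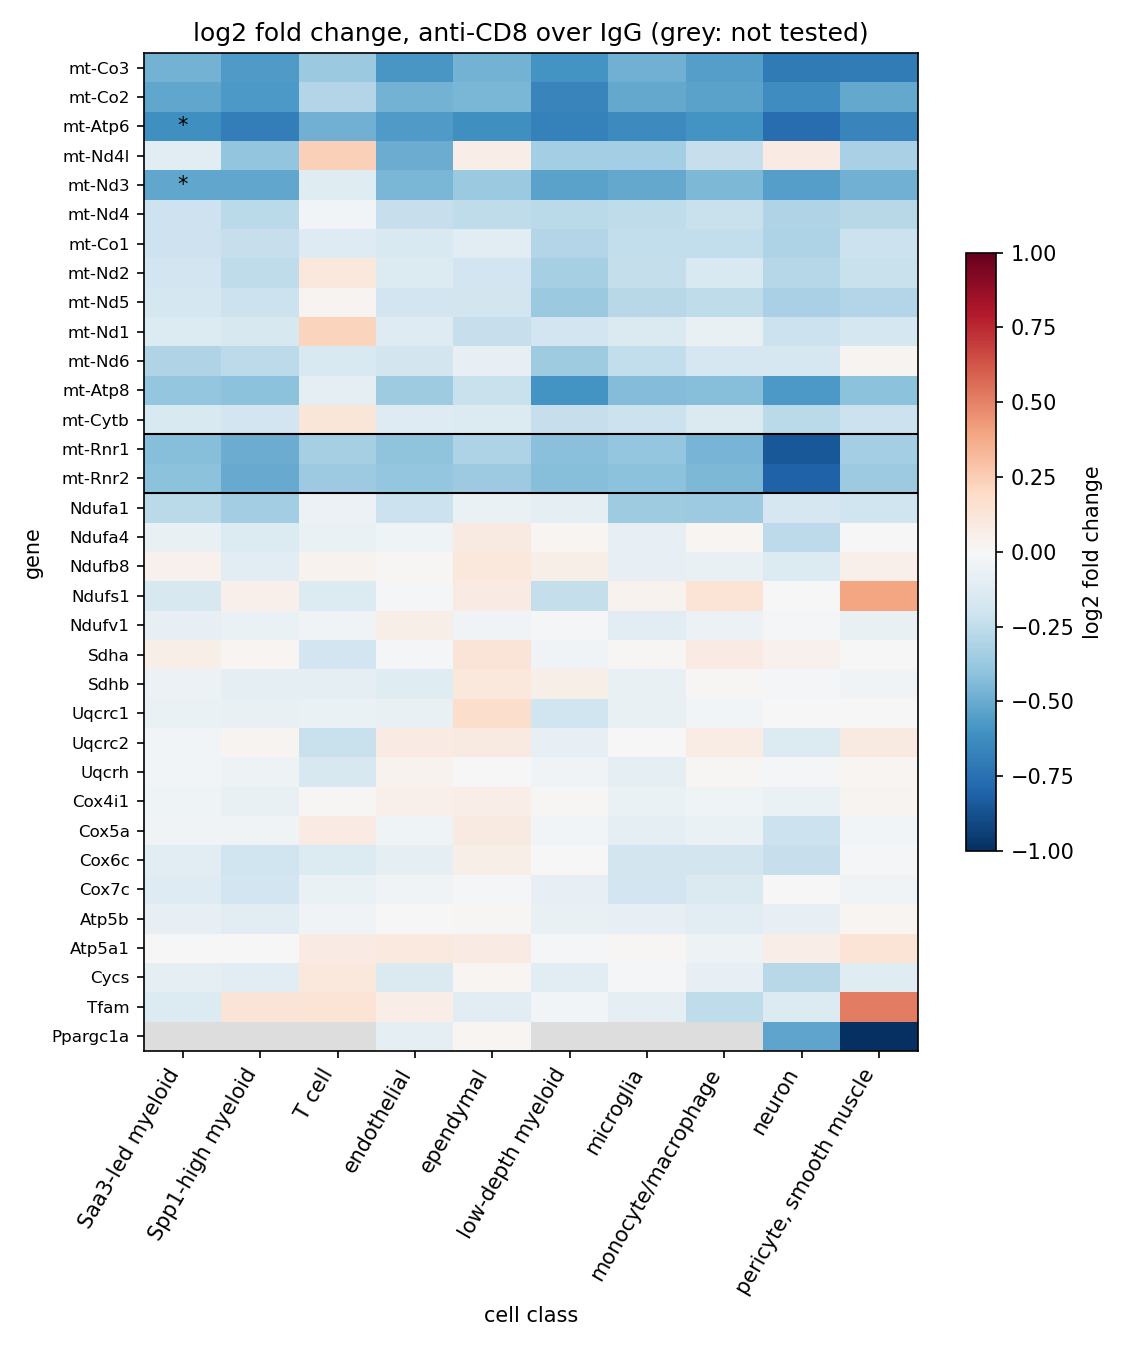
Fitted log2 fold change, anti-CD8 over IgG, of each member (rows) in each tested class (columns); lines part the mRNAs, sorted from most to least sequence shared with nuclear copies, the rRNAs and the nuclear genes, and a star marks an adjusted p under 0.05. Values below 0 (blue) are strongest for mt-Co3, mt-Co2, mt-Atp6, mt-Nd3, mt-Atp8 and the rRNAs, and nuclear genes are mostly near 0, with Ndufs1, Tfam and Ppargc1a in pericytes and smooth muscle farther off. Grey marks genes not tested.

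For each of the other phagocyte classes the 2 mitochondrial members with the smallest p are given. In Spp1-high phagocytes mt-Atp6 was at 254 and 277 against 147 and 181 normalised CPM (log2 fold change -0.69 ± 0.093, adjusted p = 0.0644 by edgeR), and mt-Nd3 had -0.52 ± 0.074 (adjusted p = 0.0838). In microglia mt-Atp8, an accessory subunit of ATP synthase, was at 82.0 and 83.3 against 60.6 and 61.6 (-0.43 ± 0.048, adjusted p = 0.108), and mt-Nd3 had -0.51 ± 0.069 (adjusted p = 0.158). In each of these the IgG libraries were higher without overlap. In the Saa3-led class mt-Atp8 and mt-Co2 followed the called pair, at -0.39 ± 0.069 and -0.52 ± 0.11. Monocytes and macrophages had -0.60 ± 0.093 for mt-Atp6 and -0.55 ± 0.12 for mt-Co3, and low-depth phagocytes -0.68 ± 0.20 and -0.60 ± 0.18.

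In vessel and neural cells mt-Atp6 again had a small p. In endothelial cells it was at 385 and 397 normalised CPM in the IgG libraries and at 248 and 281 in the anti-CD8 libraries (log2 fold change -0.57 ± 0.086, adjusted p = 0.154 by edgeR), and mt-Co2 had -0.47 ± 0.087. In pericytes and smooth muscle mt-Atp6 was at 493 and 479 against 307 and 309.9 (-0.66 ± 0.10, adjusted p = 0.102), and mt-Co3 had -0.70 ± 0.13. Neurons had 318 and 372 against 211 and 196 for mt-Atp6 (-0.76 ± 0.16, adjusted p = 0.0510) and -0.71 ± 0.15 for mt-Co3 (adjusted p = 0.0578). None of these passed the threshold, although the groups did not overlap. Ependymal cells had 821 and 733 against 463 and 552 for mt-Atp6 (-0.62 ± 0.15, adjusted p = 0.796) and -0.46 ± 0.15 for mt-Co2, also without overlap.

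In T cells 4 of the 6 genes without a copy had fold changes above 0. mt-Nd1 was at 1175 and 1004 normalised CPM in the IgG libraries and at 1262 and 1276 in the anti-CD8 libraries, with a log2 fold change of 0.22 ± 0.11 and an adjusted p of 0.465 by edgeR. mt-Cytb, mt-Nd2 and mt-Nd5 had 0.12, 0.10 and 0.028, and mt-Atp8 and mt-Nd6 -0.093 and -0.15. mt-Atp6 and mt-Rnr2 had the smallest p, with -0.48 ± 0.11 (adjusted p = 0.100) and -0.36 ± 0.14 (adjusted p = 0.312), and both were lower in both anti-CD8 libraries. The total share of mitochondrial mRNA was 0.779% and 0.734% against 0.798% and 0.783%, a log2 difference of 0.063.

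Cells of low depth are part of this class. A T cell cluster of 174 cells, also led by the mast cell genes Mcpt2 and Tpsb2, had a median of 2196.5 UMIs and a mitochondrial mRNA share of 2.06%. Without clusters of low depth the log2 difference of the class was 0.0093. In the T cell cluster with the most cells, led by Cd8b1, the share was 0.730%, 0.677%, 0.743% and 0.669% in IgG 1, IgG 2, anti-CD8 1 and anti-CD8 2, and the groups overlapped. They overlapped too in the cluster of 174 cells, at 1.827% and 2.19% against 1.835% and 2.317%. In a T cell cluster of 260 cells led by Trdc both anti-CD8 libraries were lower, at 0.949% and 0.808% against 0.752% and 0.762%. It held 21 and 70 cells in the IgG libraries and 104 and 65 in the anti-CD8 libraries. The Cd8b1-led cluster held 286 and 574 cells in the IgG libraries and 262 and 156 in the anti-CD8 libraries, so the makeup of the class moved too. Its part in the T cell values was not tested.

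The difference between T cells and microglia was fitted directly as an interaction, chosen after the values were seen. It was 0.33 ± 0.11 on the log2 scale for mt-Nd1 (adjusted p = 0.118 by edgeR) and 0.30 ± 0.11 for mt-Cytb (adjusted p = 0.187), T cells minus microglia. None of the members was called, where 1.84% of all 18539 genes were. An unadjusted p under 0.05 was reached by mt-Nd1, mt-Cytb, mt-Nd2, mt-Nd3 and mt-Nd5, and by 1564 of all 18539 genes. The fit held the library as a block, so T cells and microglia were compared within each library, with 2 libraries a group.

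Median UMIs per cell were lower in both anti-CD8 libraries in 8 of the 10 tested classes, and overlapped in low-depth phagocytes (7159 and 2288 against 2708 and 2798) and in pericytes and smooth muscle (15842 and 5475 against 12270 and 3988). They were 21635 and 21670 in the IgG microglia and 16749 and 18568 in the anti-CD8 microglia. In microglia of 20000 to under 40000 UMIs the mitochondrial mRNA share was 0.966% and 0.955% against 0.830% and 0.853%, and at 40000 or more it was 0.936% and 0.992% against 0.809% and 0.846%. From 10000 to under 20000 UMIs it was 0.877% and 0.871% against 0.803% and 0.804%, so in each of these bins both IgG libraries were higher. From 2000 to under 5000 UMIs, with 48 to 88 cells a library, it was 1.59% and 2.13% against 1.64% and 1.65%, and the groups overlapped. Below 2000 UMIs IgG 1 had 0.794% and lay below anti-CD8 1 and anti-CD8 2, at 0.908% and 1.63%, and IgG 2 had under 20 cells. From 2000 UMIs on, the rRNA share went down with depth: in IgG 1 microglia it was 3.78% at 2000 to under 5000 UMIs, 1.59% at 10000 to under 20000 and 0.854% at 40000 or more. The nuclear subunits went up, at 0.158%, 0.298% and 0.357% in the same cells.

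**Figure D5:**
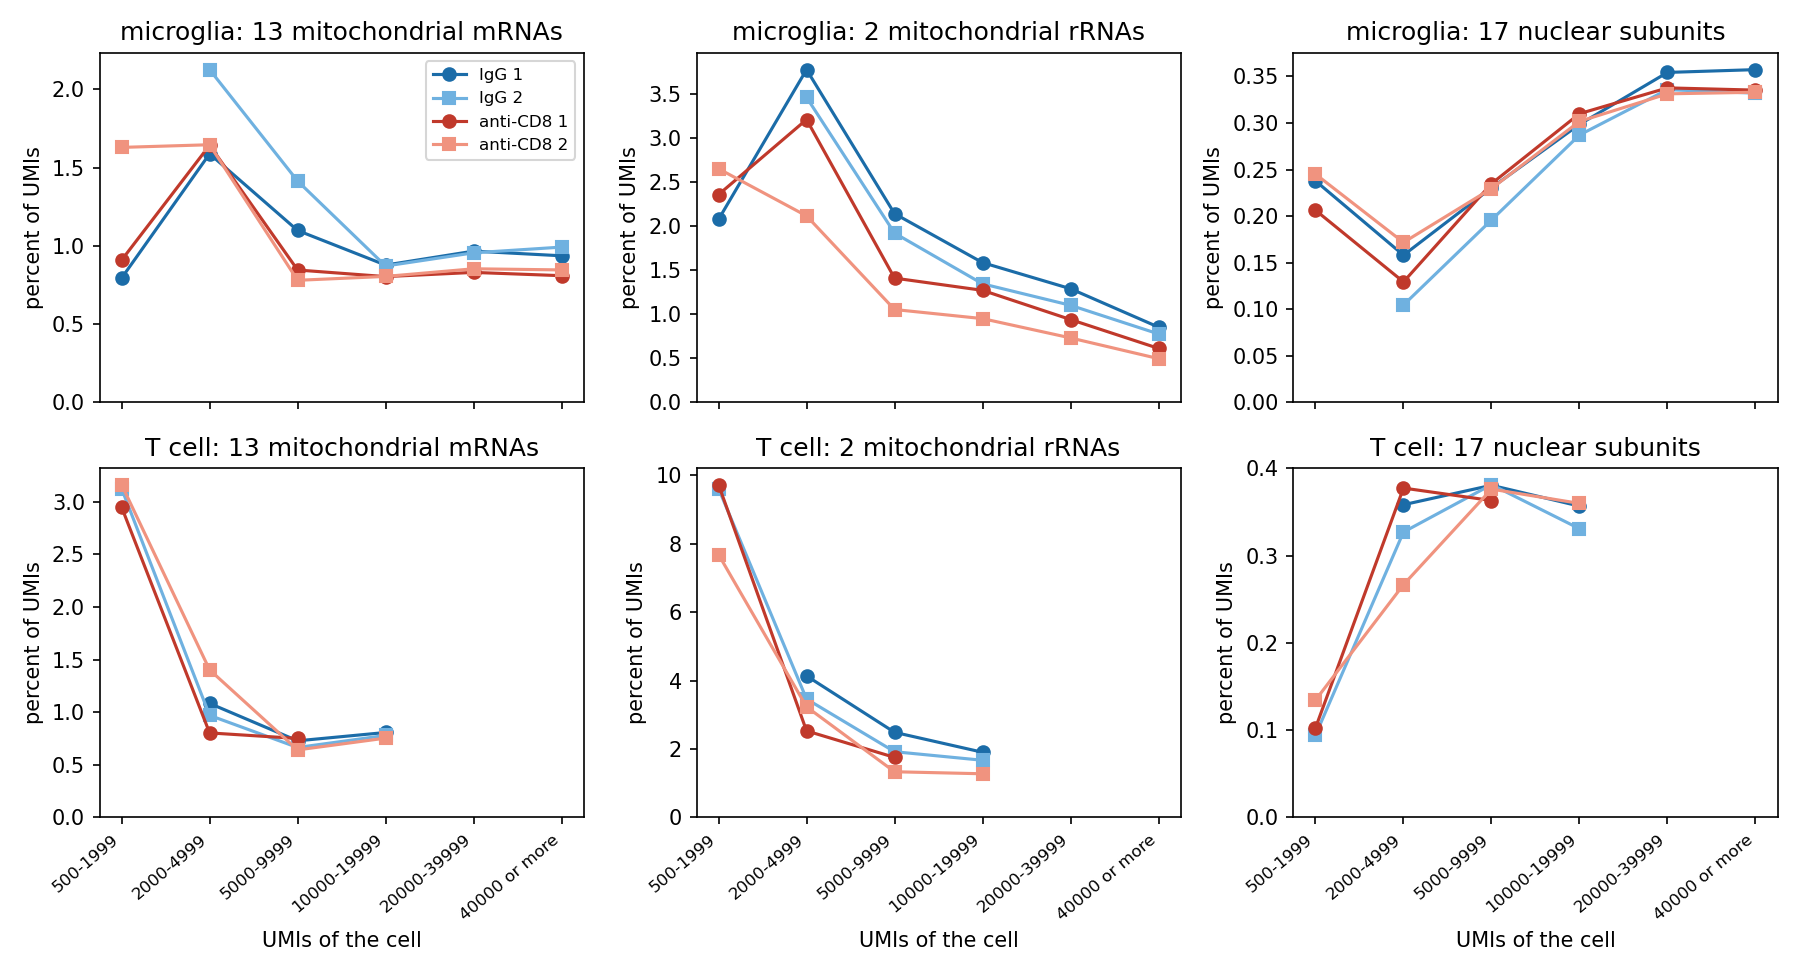
Share of UMIs (y axis, percent, each from 0) of the mitochondrial mRNAs, mitochondrial rRNAs and nuclear subunits in bins of UMIs per cell (x axis) in microglia (top) and T cells (bottom); each line is 1 library, and bins with under 20 cells are left out. In microglia of 10000 UMIs or more both IgG lines for mRNA lie above both anti-CD8 lines, and from 2000 UMIs on rRNA decreases with depth.

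Each cell was also thinned to 5000 UMIs, leaving out shallower cells (66 to 129 per library in microglia). Thinning leaves the expected share of a cell as it was. What it changes is that cells count equally and that shallower cells are gone, so it is no test of depth. The microglial mRNA shares were then 0.934% and 0.943% against 0.814% and 0.821%, and those of Spp1-high phagocytes 0.956% and 0.905% against 0.783% and 0.810%. In both the groups did not overlap. T cells treated this way, without 51 to 143 cells per library, had 0.730% and 0.680% against 0.746% and 0.662% and overlapped. Nuclear subunits in the thinned microglia were at 0.328% and 0.308% against 0.311% and 0.307%.

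Among the nuclear members of complex I, Ndufa1, a small membrane subunit encoded on chromosome X, was below 0 in all 10 classes. In microglia it was at 155 and 146 normalised CPM in the IgG libraries and at 112 and 123 in the anti-CD8 libraries, with no overlap (log2 fold change -0.36 ± 0.063, adjusted p = 0.281 by edgeR). It had -0.35 ± 0.059 in Spp1-high phagocytes (adjusted p = 0.180), -0.27 ± 0.063 in Saa3-led phagocytes (adjusted p = 0.325), -0.36 ± 0.11 in monocytes and macrophages, -0.22 ± 0.091 in endothelial cells and -0.055 in T cells. Ndufv1, which holds the flavin that takes up electrons, ran from -0.10 in microglia to 0.055 in endothelial cells. Ndufs1, which carries iron-sulphur centres, ran from -0.24 in low-depth phagocytes to 0.39 in pericytes and smooth muscle. In low-depth phagocytes it was at 18.4 and 18.4 against 23.6 and 10.3, and its value of -0.24 ± 0.40 turned to 0.35 without anti-CD8 2. Ndufb8, an accessory subunit, ran from -0.14 in neurons to 0.10 in ependymal cells.

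In complexes II and III no subunit was called. Sdha and Sdhb, the catalytic pair of complex II, ran from -0.19 to 0.13 and from -0.12 to 0.11, and Sdha in ependymal cells had 0.13 ± 0.13. Uqcrc1 and Uqcrc2, the core proteins of complex III, ran from -0.20 to 0.17 and from -0.22 to 0.092. In ependymal cells Uqcrc1 was at 58.0 and 51.0 against 65.1 and 57.7 (0.17 ± 0.14), and the value was -0.039 among cells of matched depth. It had -0.20 ± 0.22 in low-depth phagocytes, and Uqcrc2 in T cells had -0.22 ± 0.13 (adjusted p = 0.572 by edgeR). Uqcrh, the hinge protein of complex III, was at 595 and 579 against 543 and 508 in T cells (-0.16 ± 0.10), lower without overlap.

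Of the small complex IV subunits, Cox6c was at 296 and 273 normalised CPM in the IgG microglia and at 246 and 254 in the anti-CD8 microglia, without overlap (log2 fold change -0.18 ± 0.060, adjusted p = 0.489 by edgeR). It had -0.20 ± 0.059 in Spp1-high phagocytes and -0.18 ± 0.084 in monocytes and macrophages. Cox7c had -0.19 ± 0.074 in microglia and -0.13 ± 0.071 in Saa3-led phagocytes, where the groups overlapped. Cox4i1 and Cox5a, which bind the catalytic core, ran from -0.073 to 0.066 and from -0.22 to 0.091, and Ndufa4 ran from -0.26 in neurons to 0.088 in ependymal cells. Atp5b and Atp5a1, which form the catalytic head of ATP synthase, ran from -0.12 to 0.021 and from -0.054 to 0.13. In microglia these were at -0.079 and 0.012, next to -0.64 and -0.43 for mt-Atp6 and mt-Atp8 of the same enzyme.

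Cycs and the regulators gave no call. Cycs had -0.15 ± 0.092 in endothelial cells and -0.27 ± 0.16 in neurons, at 153 and 128 against 124 and 108 normalised CPM in the latter. Tfam in pericytes and smooth muscle was at 26.0 and 22.9 against 37.1 and 32.3, higher in both anti-CD8 libraries (log2 fold change 0.51 ± 0.18, adjusted p = 0.999 by edgeR). Ppargc1a in the same class was at 9.17 and 15.7 against 7.49 and 4.81 (-1.01 ± 0.37, adjusted p = 0.999), and in neurons at 41.4 and 30.9 against 29.0 and 20.6 (-0.53 ± 0.23, adjusted p = 0.450). It was lower in both anti-CD8 libraries in both classes. The pericyte class joins clusters of unequal depth, and its median UMIs ran from 3988 to 15842 over the libraries. The part of this in its values was not tested.

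The remaining genes of the pathway came from lists of other subunits, assembly factors and regulators of mitochondrial transcription, and none was called in any class. In microglia 61 of 61 other structural subunits tested had a log2 fold change below 0, with a median of -0.13, where all genes had a median of 0.00011 and 49.956% lay below 0. An unadjusted p under 0.05 was reached by 24, and the smallest adjusted p was 0.455 by edgeR. In Spp1-high phagocytes 60 of 61 were below 0 with a median of -0.14, in T cells 42 with -0.056, and in ependymal cells 26 with 0.028. In microglia all 32 other complex I subunits and all 14 other ATP synthase subunits tested were below 0, with medians of -0.13 and -0.17. Of the assembly factors 16 of 24 were, with a median of -0.057. Without composition scaling the median of all genes in microglia was 0.051. The makeup of microglia differed between the libraries, and its part in these values was not tested.

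In each class 1 gene of these lists had the smallest p. In microglia it was Tfb1m, a methyltransferase of mitochondrial rRNA, at 2.42 and 2.23 against 1.34 and 1.58 normalised CPM (log2 fold change -0.67 ± 0.16, adjusted p = 0.415 by edgeR). Atp5md, a small ATP synthase subunit, had -0.23 ± 0.060 in Spp1-high phagocytes and -0.42 ± 0.15 in neurons. Ndufb4 of complex I had -0.37 ± 0.11 in Saa3-led phagocytes and -0.30 ± 0.14 in ependymal cells, and Cox17, a copper chaperone of complex IV, -0.33 ± 0.098 in monocytes and macrophages. Polg2, the accessory subunit of the mitochondrial DNA polymerase, was higher in both anti-CD8 T cell libraries, at 36.8 and 47.0 against 59.4 and 80.9 (0.71 ± 0.19, adjusted p = 0.155). The assembly factors Ndufaf7 in endothelial cells (0.26 ± 0.089), Ndufaf2 in pericytes and smooth muscle (0.32 ± 0.15) and Sco2 in low-depth phagocytes (0.54 ± 0.32) were also higher.

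Measures of RNA and cell quality are given beside these results. Malat1, an RNA kept in the nucleus, was at 8139.9 and 8327 CPM in the IgG microglia and at 8852 and 9742 in the anti-CD8 microglia, higher without overlap. In endothelial cells it overlapped, at 16149 and 17075 against 16094 and 17924. The summed share of 14 dissociation stress genes was 0.685% and 0.771% against 0.659% and 0.729% in microglia, with overlap. It was lower in both anti-CD8 libraries, like the mitochondrial mRNA share, in Spp1-high phagocytes (0.483% and 0.470% against 0.419% and 0.451%) and in monocytes and macrophages (0.731% and 0.751% against 0.663% and 0.706%). In neurons it was higher in both, at 0.223% and 0.212% against 0.379% and 0.282%. In T cells it was 0.539% and 0.568% against 0.703% and 0.701%, and 3 of the 14 genes rose by edgeR's test, as did 4 in neurons. Over all genes, 66 of 10292 rose by that test in T cells and 130 of 13980 in neurons. Barcodes with enough genes but over 20% mitochondrial UMIs numbered 97, 87, 73 and 59 in IgG 1, IgG 2, anti-CD8 1 and anti-CD8 2, and were left out. The part of these measures in the mitochondrial values was not tested.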

How the data were processed

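Single-cell 3′ libraries of 4 spinal cord samples were analysed from the UMI counts that the authors deposited per gene and barcode, for which the submitters' processing notes name Cell Ranger 7.1.0 and GRCm39. Not given in the sources used here are the annotation release and how intronic reads and reads matching more than 1 place were handled.

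Barcodes under 300 genes or over 20% mitochondrial UMIs were left out, and the 1758 with the highest doublet scores were removed. Clustering used scanpy 1.11.5 with leidenalg 0.10.2 in Python 3.11.15 (3000 variable genes without the members and all mitochondrial genes, 30 components, 15 neighbours, resolution 1), which gave 28 clusters. T-cell receptor and immunoglobulin genes, sex-linked genes, Cd8a and Cd8b1 were also left out of the variable genes. Clusters were named from marker lists by mean log2 enrichment over the other clusters, with thresholds set after the data were seen: at least 2 for types other than phagocytes (0.3 ahead of the next list), at least 1.5 for monocytes and macrophages, and, for the rest, microglia where at least 5 of 10 microglial markers stood at 2 times their level in the macrophage cluster or more, else Spp1-high at 1 or more. From the clusters that met the microglia rule, 2 kinds were set apart. The Saa3-led one had more markers of another list than of microglia among its leading genes. The low-depth one had no microglial marker among them and few UMIs for its libraries. Counts were summed per class and library where every library had at least 20 cells, and tested with edgeR 4.0.16 in R 4.3.3 (quasi-likelihood test, TMM scaling, expression filter, Benjamini-Hochberg adjustment within the class). SE is the absolute log2 fold change over the square root of F. Normalised CPM are TMM-scaled, and shares and class levels are of summed raw counts. Scripts were tested on simulated data. There the fit called 38.8% of genes changed by 0.5 on the log2 scale in microglia and 10.3% in T cells. At a change of 1 it called 84.8% and 57.7%. The changed genes were drawn from all genes tested, so these values are not the rates for the members.

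The members and gene lists were chosen with earlier results of these data known. Named with full statistics were called members and, per class, the 2 mitochondrial and 2 nuclear members of smallest p. From the other lists the gene of smallest p was taken in each class. Other members are given by level, range or selected values. The labels do not say how many animals a library holds, so the spread behind a p-value may be technical. Libraries held 152457679 to 170539226 UMIs, and precision is lowest in classes of few cells. Alternatives were DESeq2 1.42.0, other scalings and filters, a replicate block, limits of 10% and none on mitochondrial UMIs, no doublet removal, resolution 2, members allowed among the variable genes, cells between the 25th and 75th percentile of UMIs (matched depth) and leaving out each library. The replicate numbers pair no samples in the labels. Sequences come from GENCODE M21 (GRCm38), another build than that of the counts, and windows of 90 bases were compared.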

Additional observations from a re-analysis of the deposited data

Results flagged for a closer look

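The mitochondrial mRNA share is given again because cell classes stood in opposite directions. In T cells both anti-CD8 libraries were above both IgG libraries, with a log2 difference of 0.063. Both were below in microglia (-0.19), Spp1-high phagocytes (-0.20), Saa3-led phagocytes (-0.17), monocytes and macrophages (-0.15), endothelial cells (-0.17), ependymal cells (-0.19) and neurons (-0.28). The T cell difference was 0.0093 without clusters of low depth. The libraries of the 2 groups overlapped after thinning (0.730% and 0.680% against 0.746% and 0.662%) and in the Cd8b1-led cluster, so the opposite direction was not seen there. In the Trdc-led T cell cluster both anti-CD8 libraries were lower, at 0.949% and 0.808% against 0.752% and 0.762%. The difference between classes was not tested for the summed share. For single genes it was tested between T cells and microglia only, where edgeR called no member.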

How the results depend on the processing

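Over the alternatives, the direction was kept in 94.5% of 5606 values of all 334 fits of a member in a class: in 98.8% for mitochondrial and 91.0% for nuclear members. For the 42 fits given with full statistics, which were picked by their small p, it was kept in 701 of 703. It was kept in 117 of 118 values of the mitochondrial mRNA share and in 117 of 118 of its ratio to nuclear mRNA. These values include classes that an alternative leaves unchanged, where the direction could not turn. Leaving out the interferon-led cluster changed microglia only. Leaving out clusters of low depth removed the low-depth phagocytes and otherwise changed only T cells and pericytes and smooth muscle. Among the 42, Uqcrc1 in ependymal cells turned to -0.039 at matched depth and Ndufs1 in low-depth phagocytes to 0.35 without anti-CD8 2, in a range down to -0.86 over the libraries left out. With no filter on low counts the called members, with the number of all genes called in brackets, were 9 (all genes 122) in Saa3-led phagocytes, 11 (all genes 243) in Spp1-high phagocytes, 13 (all genes 644) in microglia, 7 (all genes 93) in monocytes and macrophages, 6 (all genes 136) in endothelial cells, 6 (all genes 101) in pericytes and smooth muscle, 5 (all genes 751) in neurons, 3 (all genes 595) in T cells and 1 (all genes 135) in ependymal cells. DESeq2 gave 7 (all genes 98) in microglia, 7 (all genes 28) in Spp1-high phagocytes, 2 (all genes 164) in neurons, and 1 (all genes 2), 1 (all genes 4), 1 (all genes 12) and 1 (all genes 5) in macrophages, endothelial cells, ependymal cells and pericytes. At matched depth the count was 0 (all genes 1) in Saa3-led phagocytes, 1 (all genes 4) in Spp1-high phagocytes and 3 (all genes 70) in pericytes and smooth muscle, and the microglial share difference was -0.16. With members among the variable genes Spp1-high phagocytes had 1 call (all genes 4), a share difference of -0.15 and a ratio difference of -0.097. Neurons had 1 call (all genes 183) with scaling without mitochondrial genes and 3 (all genes 176) with no limit on mitochondrial UMIs. They had 1 (all genes 180) at resolution 2, at which no Saa3-led class was found. By choices made after seeing the data, T cells without clusters of low depth had 1 call (all genes 115), a share difference of 0.0093 and a ratio difference of 0.018. By such a choice microglia without the interferon-led cluster had 1 call (all genes 17). The cause was not tested in any of these.

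With a replicate block the called members were 7 (all genes 57) in Saa3-led phagocytes, 10 (all genes 151) in Spp1-high phagocytes, 3 (all genes 18) in endothelial cells, 3 (all genes 36) in pericytes and smooth muscle, 2 (all genes 56) in ependymal cells and 2 (all genes 382) in neurons. Deviations of same-numbered libraries correlated at -0.017 to 0.224 over the classes, and the numbers are only names.

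Leaving out 1 library at a time gave 3 to 9 called members in Saa3-led phagocytes, 5 to 8 in Spp1-high phagocytes, 0 to 2 in microglia, 1 to 3 in monocytes and macrophages, 0 to 11 in low-depth phagocytes, 0 to 7 in endothelial cells, 0 to 3 in pericytes and smooth muscle, 0 to 4 in neurons and 0 to 2 in T cells. The highest counts were those without anti-CD8 1 in low-depth phagocytes and neurons, without anti-CD8 2 in Saa3-led phagocytes and macrophages, and without IgG 2 in microglia, endothelial cells, pericytes and T cells. A lone library is then assumed to vary like the others. The ratio difference of Spp1-high phagocytes ran from -0.18 to -0.099.

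Calls over all genes ranged across the alternatives from 0 to 644 in microglia (3 as reported), 0 to 243 in Spp1-high phagocytes (5), 1 to 202 in Saa3-led phagocytes (10), 0 to 93 in monocytes and macrophages (0), 0 to 63 in low-depth phagocytes (0), 0 to 170 in endothelial cells (0), 0 to 172 in ependymal cells (1), 18 to 751 in neurons (178), 0 to 101 in pericytes (1) and 62 to 595 in T cells (82). Without composition scaling 36.8% of all genes in microglia lay below 0.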
